A study of Mus musculus with 12 samples.

Results

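Cytosolic ribosomal protein genes were followed across RNA-seq libraries of sorted mouse alveolar type 2 (AT2) cells. The members were all genes of the expression table with a name starting Rpl (large subunit) or Rps (small subunit) that the table also placed in the KEGG ribosome pathway. This rule gave 86 of 21878 genes, 53 of the large and 33 of the small subunit. AT2 cells are the surfactant-secreting cells of the alveolus, from which the epithelium regenerates after injury. The study asked how autophagy shapes these cells after injury with the drug bleomycin (BLM), and it deposited 12 libraries in 4 groups of 3 biological replicates each. AT2-PBS and AT2-BLM cells came from Atg5f/f mice that had received PBS or BLM. Cells of the groups Atg5-/- AT2-PBS and Atg5-/- AT2-BLM came from Nkx2.1Cre;Atg5f/f mice given the same agents. All groups carried the floxed Atg5 allele on the C57BL/6 background. Nkx2.1Cre is active in the lung epithelium as a whole, so the deletion is not confined to AT2 cells. BLM was given into the trachea at 2 U/kg, cells were taken at day 14, and male mice of 8 to 12 weeks were used in BLM experiments, per the study's methods, where the day is not given for the Atg5-/- AT2-PBS mice. The sort kept EpCAM+ cells that lacked CD31, CD34, CD45, CD24 and Sca-1.

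Ribosomal proteins assemble with ribosomal RNA in the nucleolus into a large and a small subunit, which join on an mRNA to translate it. Their mRNAs are short and abundant, and most belong to the 5′-terminal oligopyrimidine (TOP) class, whose mRNA starts with a C followed by a run of pyrimidines. Translation of TOP mRNAs is controlled together by the kinase mTORC1, which also restrains autophagy, and ribosomes are themselves a cargo that autophagy can degrade. Some members have paralogs or intronless copies elsewhere in the genome, so a read can match more than 1 place.

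Pyrimidine runs were looked for at the annotated starts of the transcripts, and 6 starts are shown as 30 bases of mm9 (NCBIM37, GENCODE vM1 starts), 15 before and 15 from the annotated start, on the transcribed strand, with 1 pyrimidine run (C or T) near the start in capitals. They were picked to show long runs and, for Rps27l and Rpl3, members described further on. In Rpl19, Rps27l and Rpl3 the marked run lies before the annotated start.
Rplp1 (chr9:61762331-61762360, minus strand): caggcgtatatgaTCTTTTCCTCagctgcc
Rpl32 (chr6:115758751-115758780, minus strand): gcgccgccgccgCCTCTTCCTTCTTCCTCg
Rpl19 (chr11:97888223-97888252, plus strand): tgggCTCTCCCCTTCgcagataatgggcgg
Rps27 (chr3:90017559-90017588, minus strand): aggatttccgctttcgCTCCTTTCCggcgg
Rps27l (chr9:66793878-66793907, plus strand): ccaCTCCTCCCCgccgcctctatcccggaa
Rpl3 (chr15:79913822-79913851, minus strand): cacgTTCgcacgctcagggggcggagccat
Of 82 members with a coding transcript in that annotation, 49 (59.8%) held a run of at least 8 pyrimidines within 40 bases before and 40 bases from the start, against 29.4% of 22509 other protein-coding genes. The letters CTCTTTC were present in 11.0% of the members' windows and in 1.01% of the others. Only the transcribed strand was read, and a CTCTTTC match can lie inside a run that was counted. Rpl3 had no run longer than 3 in the printed stretch. Annotated starts can be off by several bases, so these windows describe letters only.

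The deposited values were FPKM, fragments per kilobase of transcript, scaled to the mapped fragments. FPKM summed over all genes to between 390141 and 549169 per library, and steps between low values put the libraries at 1 to 1.16 times the depth of AT2-PBS replicate 1. Total read counts were not used here, so depth in reads is unknown. Atg5 itself was listed between 6.01 and 12.5 FPKM in the libraries labelled Atg5f/f and between 6.72 and 10.1 FPKM in those labelled Atg5-/-. A value over the whole gene does not check the deletion of a floxed part, and the genotypes are those of the labels. The AT2 marker Sftpc was listed at 0 in 11 libraries and at 112570 FPKM in AT2-BLM replicate 2 (20.5% of that library's FPKM), and Gapdh between 0.298 and 1.08 FPKM, so values at or near 0 in this table can be failed estimates. The other 8 of 9 AT2 markers were at 1 FPKM or more in all libraries. Markers of other cells stood apart in Atg5-/- AT2-PBS: the summed FPKM of 12 leukocyte genes was 869 to 1173 there, against 17.1 to 69.0 in AT2-PBS, 71.2 to 176 in AT2-BLM and 71.7 to 275 in Atg5-/- AT2-BLM. In bulk samples, fewer cells of a type and less RNA per cell cannot be told apart.

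No member with a median of at least 10 FPKM dropped under 1 FPKM in any library (0 members), and 83 of 86 were at 1 FPKM or more in every library. This check cannot find a gene that is too low in all libraries, as Gapdh may be. The 3 exceptions were low throughout and did not pass the filter for testing (1 FPKM or more in at least 3 samples). Rpl31-ps12, a name marking a pseudogene, was listed between 0 and 0.758 FPKM. Rpl3l, a striated-muscle paralog of Rpl3, was listed between 0 and 0.325 FPKM, with its highest values in Atg5-/- AT2-PBS (0.0599, 0.325 and 0.0921). Rpl39l, a testis paralog of Rpl39, was highest in Atg5-/- AT2-PBS replicates 1 and 2 (1.55 and 1.88 FPKM) and between 0 and 0.867 in the other 10 libraries. Rpl39 itself was listed between 96.5 and 245 FPKM.

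Most members were among the abundant transcripts of these cells. The mean over 12 libraries was at least 100 FPKM for 51 members, and the median of these means was 138 FPKM. The highest were Rpl41 (mean 1148 FPKM, range 739 to 1798), which encodes the smallest ribosomal protein, Rpl13 (947, range 685 to 1187), Rps27 (934, range 683 to 1282), Rps19 (856, range 630 to 1025) and Rps14 (740, range 574 to 924). These neighbours' ranges overlapped, so the order is not separated by the spread between libraries. The other end held 4 members with far lower FPKM than most others of the same subunits: Rps15a (3.07 to 7.69), Rpl22 (3.46 to 9.37), Rps24 (3.18 to 7.89) and Rps20 (5.16 to 10.3). Whether these are true levels or estimates that failed in all libraries cannot be told from FPKM alone, and the calls of Rps20 and Rpl22 given further on carry that doubt. Pearson's r with the mean of the other members was 0.92 to 0.97 for 3 of them and lower for Rpl22.

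The libraries differed in the level of the whole group more than the conditions did. Summed over the members, FPKM were 16111, 14534 and 19922 in AT2-PBS replicates 1 to 3 and 18432, 16105 and 21659 in AT2-BLM. They were 20408, 22640 and 20370 in Atg5-/- AT2-PBS and 13269, 24881 and 16756 in Atg5-/- AT2-BLM. The last group thus held both the lowest and the highest library of the series, 1.88-fold apart, and Atg5-/- AT2-PBS was the tightest (1.11-fold). Of the 83 tested members, 50 had their lowest value in Atg5-/- AT2-BLM replicate 1 and 50 had their highest in replicate 2 of that group. Members made up 2.93 to 5.59% of all FPKM, and the low end was the library with Sftpc at 112570 FPKM (4.01% there without surfactant protein genes). The ratio of large to small subunit FPKM stayed between 1.30 and 1.48.

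**Figure D1:**
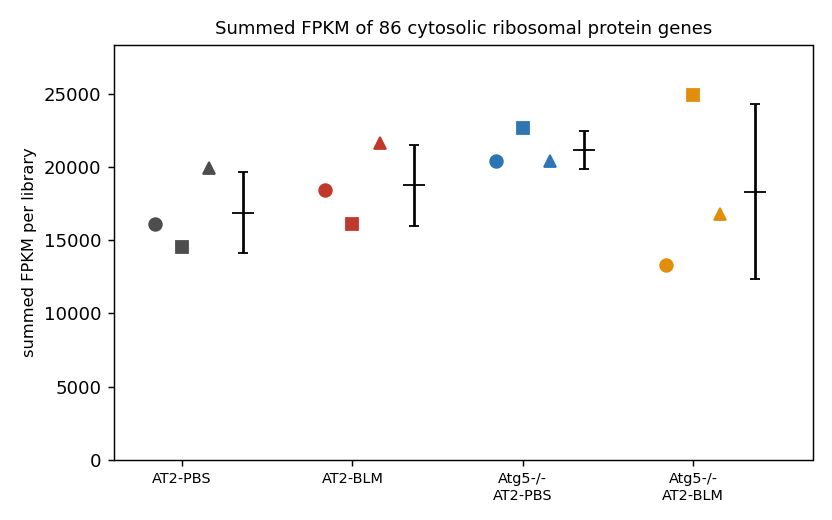
Summed FPKM of the 86 members (vertical axis) in each library, by group (horizontal axis); circles, squares and triangles are replicates 1, 2 and 3, and the bars beside them give mean and SD of 3 libraries. Atg5-/- AT2-BLM spans 13269 to 24881, wider than the differences between the group means (16855 to 21139).

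Most members moved together from library to library. Pearson's r of a member's log2(FPKM + 1) with the mean of the other members over the 12 libraries had a median of 0.89, and 37 of 83 members reached 0.9, while 10592 other tested genes had a median of 0.02 with the members' mean and 15 of them (0.142%) reached 0.9. All these points share the same 12 libraries, their depth and scaling. The genes outside the rule with the most similar pattern were Shfm1 (r = 0.97), Fau (0.96), whose product includes a small-subunit protein, Tpt1 (0.95), a known TOP mRNA, and the mitochondrial protein genes Cox4i1 and Chchd2 (0.94 each), with Rack1 (0.94), a scaffold protein on the small subunit, next. Members that did not follow the others were Rps3a1 (r = -0.26), Rpl34-ps1 (-0.20), Rps27rt (0.20), Rpl22 (0.30), Rpl3 (0.30), Rplp0 (0.38) and Rps27l (0.39). Rpl4 and Rpl21 varied least among the tested members, with SDs of 0.17 and 0.19 over all 12 libraries on the log2(FPKM + 1) scale.

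Short transcripts outside the group varied in a partly similar order. Members' coding transcripts had a median length of 768 bases. Among other genes with a mean of at least 50 FPKM, the 163 with transcripts under 800 bases averaged between 0.02 lower and 1.28 higher on the log2(FPKM + 1) scale than the 346 of at least 2000 bases, depending on the library. This difference was -0.02 to 0.31 in AT2-PBS, 0.44 to 0.55 in AT2-BLM, 0.78 to 1.28 in Atg5-/- AT2-PBS, and 0.14, 1.14 and 0.40 in Atg5-/- AT2-BLM replicates 1 to 3. The library with the lowest and the 2 with the highest member levels were thus at 0.14, 1.14 and 1.28. Other libraries departed from this order. AT2-BLM replicate 3 had a higher member mean (7.23) at 0.50 than Atg5-/- AT2-PBS replicate 1 (7.13) at 1.12. The part of transcript length in the members' differences was not tested.

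**Figure D2:**
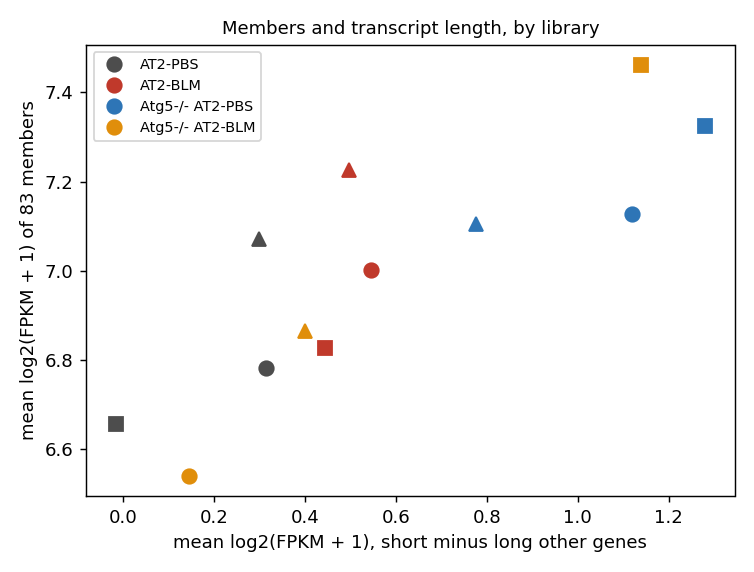
Mean log2(FPKM + 1) of the 83 tested members (vertical axis) against the mean of short minus long other genes (horizontal axis, log2 units), 1 point per library, coloured by group; circles, squares and triangles are replicates 1 to 3. Atg5-/- AT2-BLM replicate 2 (1.14, orange square) and Atg5-/- AT2-PBS replicate 2 (1.28, blue square) stand at the upper right.

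Comparisons were made on log2(FPKM + 1) with limma in a fit of all 12 libraries, and a call took both a fold of at least 1.4 and p under 0.05 before adjustment, which is the study's own criterion. On this scale the changes of weakly expressed genes come out too small. Benjamini-Hochberg adjusted p-values over 10675 tested genes are given beside most calls of members. For other gene lists the number passing the adjusted threshold (adjusted p under 0.05 and the same fold) is given. Shares of all genes called are those of this fit and were not taken for the alternative settings given further on. With 3 libraries against 3, an exact permutation test of a single gene cannot go below 0.1. Comparisons with a group in common share its libraries and are not independent.

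**Figure D3:**
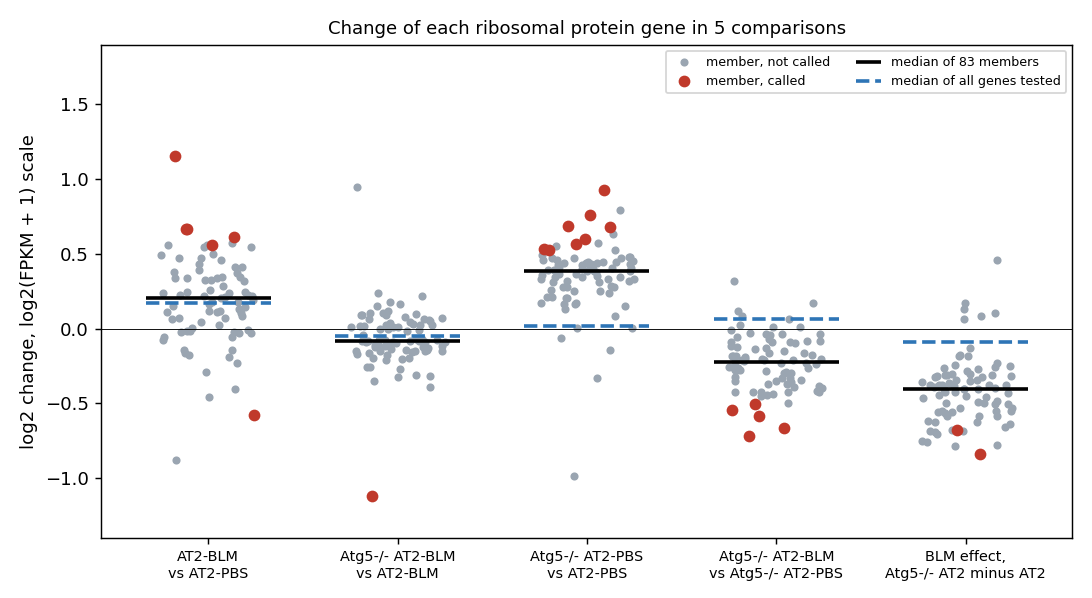
Log2 change of each of the 83 tested members (vertical axis, log2(FPKM + 1) scale) in the 5 comparisons (horizontal axis, points spread sideways at random); red points were called, black lines are members' medians and blue dashed lines medians of all genes tested. The medians lie apart in Atg5-/- AT2-PBS against AT2-PBS (0.38 and 0.02) and lie close together for BLM in Atg5f/f cells (0.20 and 0.17).

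The first comparison asked what BLM injury did in Atg5f/f cells, and ribosomal proteins as a group moved little there. In AT2-BLM against AT2-PBS, 5 of 83 tested members rose (6.02%, against 20.6% of all genes tested) and 1 fell (1.20%, against 7.77%). The members' median log2 change was 0.20, near the 0.17 of all genes, and both medians shifted to about 0 after other scalings (members -0.01 with quantile normalization and -0.02 scaled to a common sum), with 1 higher and 4 lower in each. The paralog Rps27l, a p53 target gene, moved most. It measured 9.41, 7.33 and 10.1 FPKM in AT2-PBS and 24.1, 20.4 and 18.7 FPKM in AT2-BLM. The groups did not overlap, and the log2 change of 1.16 (standard error 0.19) was the only one among members to pass the adjusted threshold (limma, adjusted p = 0.00331), which 13.1% of all genes passed upward. Its call held in all 14 alternative settings.

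The other members that rose with BLM had adjusted p-values from 0.0538 to 0.134 (limma). Rpl27, of the large subunit, measured 91.5, 70.3 and 92.9 FPKM in AT2-PBS and 124, 113 and 173 FPKM in AT2-BLM (log2 change 0.67, standard error 0.22). Rpl28 went from 96.5 ± 15.6 to 153 ± 20.1 FPKM (SD, n = 3 each), a log2 change of 0.67. Rpl19 went from 283 ± 44.7 to 417 ± 51.4 FPKM, a log2 change of 0.56. Rpsa, whose protein also acts as a laminin receptor precursor, was very even in AT2-PBS (42.9, 43.1 and 41.6 FPKM) and higher in AT2-BLM (60.8, 57.5 and 80.1 FPKM), a log2 change of 0.61. None of these groups overlapped. Leaving out AT2-PBS replicate 2, or either of AT2-BLM replicates 1 and 3, ended the calls of Rpl28, Rpl19 and Rpsa, leaving out AT2-PBS replicate 1 ended those of Rpl19 and Rpsa, and AT2-PBS replicate 3 that of Rpsa, with log2 changes between 0.45 and 0.67, while Rpl27 kept its call.

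Rpl3, of the large subunit, was the 1 member that fell with BLM. It measured 173, 157 and 175 FPKM in AT2-PBS and 148, 107 and 89.6 FPKM in AT2-BLM, a log2 change of -0.58 (standard error 0.25, limma adjusted p = 0.131). Groups without overlap were higher with BLM for 13 members (28.9% of all genes) and lower for 3 (11.3% of all genes). Rpl10, which completes the large subunit, and Rpl22 also had groups that did not overlap but missed the criterion, with log2 changes of -0.46 and -0.40. Rpl10 measured 458, 447 and 617 FPKM in AT2-PBS and 381, 334 and 380 FPKM in AT2-BLM. Measured relative to the mean of the members in each library, a setting chosen after seeing the data, Rpl10 had a log2 change of -0.64 and Rps27l one of 0.97 (limma adjusted p = 0.0326 and 0.0380), and 2 members were higher and 2 lower. By library, leaving out AT2-PBS replicate 2 left 3 higher, AT2-PBS replicate 3 left 8, and AT2-BLM replicate 1 or 3 left 2. Rpl3 lost its call without any 1 of the 3 AT2-PBS libraries and without AT2-BLM replicate 2 or 3 (log2 changes of -0.63 to -0.42). No member was called lower in these settings (0 members), except that without AT2-PBS replicate 2 Rps27rt was (-0.49). The leukocyte markers summed to 71.2 to 176 FPKM in AT2-BLM against 17.1 to 69.0 in AT2-PBS. Higher in each AT2-BLM library than in each AT2-PBS library were 3 of 12 leukocyte, all 4 proliferation and 4 of 5 alveolar type 1 (AT1) markers. Of 9 AT2 markers, 1 was higher and 2 were lower in this way. The part of these markers in the result was not tested.

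Rps27l and Rps27 encode paralogous small-subunit proteins that share 194 of 255 coding bases (76.1%) and went in different directions, so their coding sequences are shown, with every base that differs in capitals (mm9, GENCODE vM1).
Rps27: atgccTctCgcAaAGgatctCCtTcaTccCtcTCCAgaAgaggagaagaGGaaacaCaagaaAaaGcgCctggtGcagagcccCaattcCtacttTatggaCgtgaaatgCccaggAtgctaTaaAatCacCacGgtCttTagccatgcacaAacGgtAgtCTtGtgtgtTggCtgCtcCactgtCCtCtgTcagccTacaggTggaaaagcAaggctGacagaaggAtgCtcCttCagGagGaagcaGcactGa
Rps27l: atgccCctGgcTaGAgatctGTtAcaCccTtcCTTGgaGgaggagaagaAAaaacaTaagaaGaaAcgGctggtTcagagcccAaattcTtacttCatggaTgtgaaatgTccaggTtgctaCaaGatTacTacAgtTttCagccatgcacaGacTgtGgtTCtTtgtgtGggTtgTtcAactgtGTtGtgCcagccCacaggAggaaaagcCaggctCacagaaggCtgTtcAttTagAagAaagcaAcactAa
Rps27l lies on chromosome 9 (chr9:66793893-66797323, plus strand) and Rps27 on chromosome 3 (chr3:90016593-90017573, minus strand). Rps27 measured 923 ± 151 FPKM in AT2-PBS and 784 ± 88.0 FPKM in AT2-BLM (SD, n = 3 each), a log2 change of -0.23 that was not called, so Rps27l stayed a small fraction of its paralog's level. The retrogene Rps27rt measured 18.9 ± 4.37 and 15.3 ± 3.72 FPKM. The genome holds 5 intronless copies of the Rps27 coding sequence, 1 of them exact, and 0 of Rps27l, so the share of Rps27 and Rps27rt is uncertain.

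**Figure D4:**
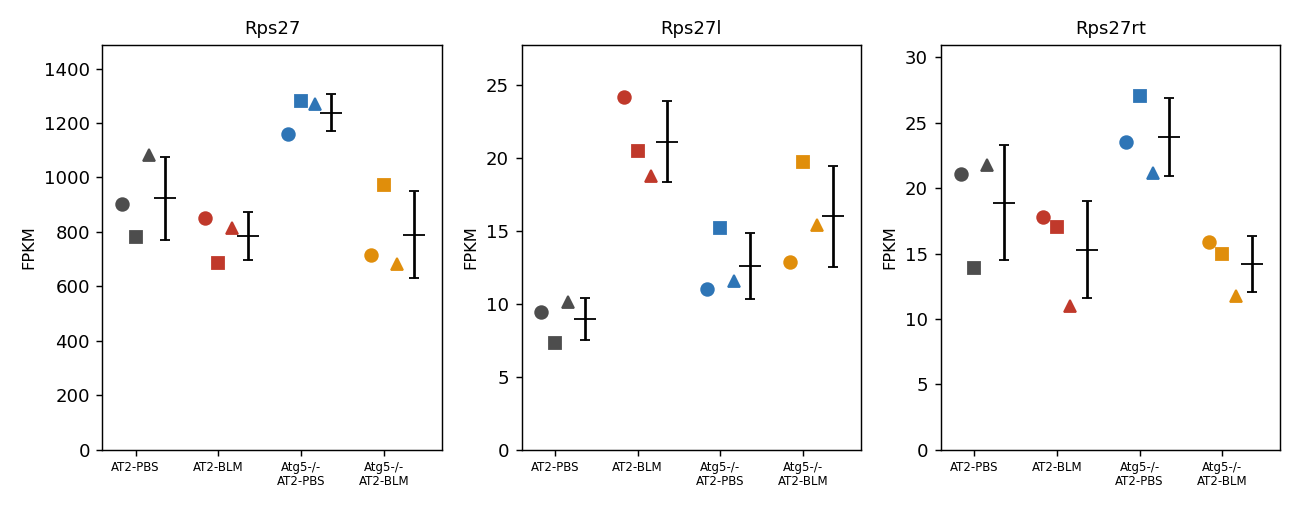
FPKM (vertical axes, each from 0 with its own scale) of Rps27, Rps27l and Rps27rt in each library by group; circles, squares and triangles are replicates 1 to 3, bars give mean and SD of 3 libraries. Rps27l is higher in every AT2-BLM library (18.7 to 24.1) than in every AT2-PBS library (7.33 to 10.1), and Rps27 is highest in Atg5-/- AT2-PBS (1160 to 1282).

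Without injury, most ribosomal protein genes had higher FPKM in the Atg5-/- libraries, but 0 passed the adjusted threshold. In Atg5-/- AT2-PBS against AT2-PBS the members' median log2 change was 0.38, against 0.02 over all genes, and 79 of 83 members had a positive change. The criterion called 8 members higher (9.64%, against 14.1% of all genes) and 0 lower (against 5.16%), and 0 passed the adjusted threshold (against 9.90% of all genes upward; limma, 11 members with an unadjusted p under 0.05). For 35 members all Atg5-/- AT2-PBS libraries were above all AT2-PBS libraries (18.1% of all genes), and for 2, Rpl3 and Rps3a1, all were below (10.8% of all genes). Relative to the median of all genes, the members' median was 0.37, and between 0.34 and 0.40 under the 3 other scalings. Scaled to a common sum, though, 0 members were called higher and 2 lower. As a share of all FPKM, members made up 4.28, 4.41 and 4.78% in Atg5-/- AT2-PBS. The share was 4.01, 3.73 and 4.77% in AT2-PBS, so these groups overlapped. All members were measured in the same libraries, so the signs of their changes are not independent.

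The members called higher came from both subunits. Rps12, of the small subunit, measured 42.2, 30.9 and 39.4 FPKM in AT2-PBS and 72.6, 72.6 and 69.9 FPKM in Atg5-/- AT2-PBS, a log2 change of 0.93 (standard error 0.39, limma adjusted p = 0.174). Rplp1, part of the stalk that recruits elongation factors, measured 298, 279 and 379 FPKM and 516, 581 and 515 FPKM (log2 change 0.76, standard error 0.30, limma adjusted p = 0.145). Neither gene's groups overlapped. Rpsa stood at 64.3, 74.7 and 67.4 FPKM and Rpl27 at 137, 152 and 120 FPKM in Atg5-/- AT2-PBS, against the AT2-PBS values given above, log2 changes of 0.68 each. Rpl36 (0.60), Rpl37a (0.57), Rps20 (0.53) and Rps9 (0.53) completed the list, with limma adjusted p-values from 0.131 to 0.171. Among members not called, Rplp0, the base of the same stalk and a common reference gene, measured 404, 405 and 408 FPKM in Atg5-/- AT2-PBS and 355, 329 and 154 FPKM in AT2-PBS.

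The shift moved with other features of the Atg5-/- AT2-PBS libraries. All 12 leukocyte, 4 club cell (summed FPKM 23390 to 84980 against 4930 to 11750), 6 fibroblast (89.7 to 101 against 3.49 to 12.8) and 5 liver markers (1470 to 2526 against 3.34 to 401) were higher in each of its libraries than in each AT2-PBS library. Ptprc, which encodes the CD45 that the sort removed, was at 7.54 to 8.46 FPKM there and at 0.0119 to 0.621 in AT2-PBS, and the T cell gene Cd3e at 0.589 to 0.836 and 0 to 0.0457. Of 9 AT2 markers, 5 were lower in each Atg5-/- AT2-PBS library than in each AT2-PBS library, and 0 were higher. In the same way 3 of 4 ciliated and 1 of 6 endothelial markers were higher and 0 lower. The summed FPKM of these ciliated and endothelial lists overlapped between the groups. Short genes were also high, as given above. The part of these in the result was not tested. The number called higher was 4, 2 and 22 without AT2-PBS replicate 1, 2 or 3, and 1 without Atg5-/- AT2-PBS replicate 2, and the members' median then ranged from 0.26 to 0.51. For these settings the share of all genes called was not taken.

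In injured cells no member differed between the genotypes at the adjusted threshold, and the Atg5-/- AT2-BLM libraries lay far apart, as given above. In Atg5-/- AT2-BLM against AT2-BLM, 0 of 83 members rose (2.04% of all genes) and 1 fell (1.20%, against 3.12%), with a median log2 change of -0.08 (-0.05 over all genes). The sign of that median turned with quantile normalization (0.02), with scaling to a common sum (0.09), and without Atg5-/- AT2-BLM replicate 1 (0.14) or AT2-BLM replicate 3 (0.03). The member that fell was Rps3a1 (279, 217 and 305 FPKM in AT2-BLM and 115, 65.7 and 235 FPKM in Atg5-/- AT2-BLM). These groups overlapped, and its log2 change of -1.12 (standard error 0.47) had a limma adjusted p of 0.621. Rps3a1 lost its call when replicate 1 of Atg5-/- AT2-BLM, or either of replicates 1 and 3 of AT2-BLM, was left out, and 0 members were then called lower. It also lost it without Atg5-/- AT2-BLM replicate 2 (-0.68), where 8 other members were called lower. No share of all genes was taken for that setting.

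Within Atg5-/- cells, most members had a negative change with BLM but few were called, and Rps27rt and Rps27 fell most. In Atg5-/- AT2-BLM against Atg5-/- AT2-PBS, 5 members fell (6.02%, against 10.7% of all genes) and 0 rose (against 7.66%). The median log2 change was -0.22 (0.06 over all genes), and 75 of 83 changes were negative. Rps27 measured 1160, 1282 and 1271 FPKM in Atg5-/- AT2-PBS and 714, 974 and 683 FPKM in Atg5-/- AT2-BLM. The groups were apart, and the log2 change of -0.66 (standard error 0.18) passed the adjusted threshold (limma, adjusted p = 0.0441), as 6.25% of all genes did downward. Rps27rt measured 23.5, 27.1 and 21.2 FPKM and 11.8 to 15.9 FPKM, also without overlap, a log2 change of -0.72 (limma adjusted p = 0.0653). Both calls held in all 14 alternative settings. The share of Rps27 and Rps27rt is uncertain, as given above, so their calls are not separate results. Rps27l did not fall (log2 change 0.32, not called). Markers of other cells were also lower with BLM: all 12 leukocyte (summed FPKM 71.7 to 275 against 869 to 1173), 4 club cell (1162 to 2166 against 23390 to 84980), 6 fibroblast (5.25 to 15.3 against 89.7 to 101) and 5 liver markers (121.7 to 849.9 against 1470 to 2526) were below each Atg5-/- AT2-PBS library in each Atg5-/- AT2-BLM library. All 5 AT1, 3 of 4 proliferation and 3 of 9 AT2 markers were above each Atg5-/- AT2-PBS library in each Atg5-/- AT2-BLM library. In these 3 lists 0 markers were lower in this way. Of the remaining lists, 3 of 4 ciliated and only 1 of 6 endothelial markers were lower in this way, and 0 were higher. The part of all these markers in the members' changes was not tested.

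The other members that fell were Rpl22, Rpl37a and Rps9. Rpl22, an RNA-binding large-subunit protein, measured 7.55, 9.37 and 5.72 FPKM in Atg5-/- AT2-PBS and 4.11, 6.49 and 3.57 FPKM in Atg5-/- AT2-BLM, groups that overlapped (log2 change -0.59, limma adjusted p = 0.157). Rpl37a (-0.54) overlapped and Rps9 (-0.51), which stood at 67.1 ± 6.93 and 47.9 ± 12.5 FPKM (SD, n = 3 each), did not. The paralog of Rpl22, Rpl22l1, stood at 78.0 ± 16.8 FPKM with PBS and 75.9 ± 34.4 FPKM with BLM in Atg5-/- cells (SD, n = 3 each), more than its partner in every library, with 67.5% of aligned coding bases shared. The count of 5 moved with single libraries. Without Atg5-/- AT2-BLM replicate 2, 39 members were called lower. The count was 3 without Atg5-/- AT2-PBS replicate 1 and 2 without replicate 2 of that group or replicates 1 or 3 of Atg5-/- AT2-BLM. For these settings the share of all genes called was not taken. With Atg5-/- AT2-BLM replicates 1 and 2 both left out, 12 were called lower, but that group then held 1 library, which was assumed to vary like the other groups. Scaled to a common sum, 1 was called higher and 2 lower.

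The test of the difference between the genotypes' BLM effects called 0 members higher (5.02% of all genes) and 2 lower (2.41%, against 15.2%). The median difference was -0.41 (-0.09 over all genes) and was negative for 77 of 83 members, among them all 33 of the small subunit. With quantile normalization it was -0.19 (0.145 over all genes) and with median-ratio scaling -0.31 (-0.01 over all genes). Scaled to a common sum it was -0.02, with 0.26 over all genes. That sum includes Sftpc, at 20.5% of FPKM in AT2-BLM replicate 2. Relative to the median of all genes, the members' median was -0.31 in the main fit and between -0.27 and -0.33 under the 3 other scalings. Rps27l had a difference of -0.84 (standard error 0.27, limma adjusted p = 0.0885). Among Atg5-/- cells its FPKM were 11.0, 15.2 and 11.5 with PBS and 12.9, 19.7 and 15.4 with BLM, groups that overlapped, against the separated groups in Atg5f/f cells. Between the PBS groups Rps27l was higher in Atg5-/- cells, without overlap (log2 change 0.45, not called). Rps20 had a difference of -0.68 (standard error 0.30, limma adjusted p = 0.226), with 6.02, 5.16 and 7.43 FPKM in AT2-PBS, 8.21, 7.07 and 9.10 in AT2-BLM, 8.95, 10.2 and 8.85 in Atg5-/- AT2-PBS and 5.28, 10.3 and 6.73 in Atg5-/- AT2-BLM. Without Atg5-/- AT2-BLM replicate 2, 52 members were called lower, with no share of all genes taken for that setting. The count was 1 without AT2-PBS replicate 2, AT2-BLM replicate 1, Atg5-/- AT2-PBS replicate 2 or Atg5-/- AT2-BLM replicate 1, 6 without AT2-PBS replicate 3, 5 without AT2-BLM replicate 2, and 16 without both Atg5-/- AT2-BLM replicates 1 and 2, again with 1 library left in that group and its spread assumed. The marker differences given for the other comparisons enter this one as well.

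Many members have near-identical copies in the genome. Of 82 members with a coding sequence, 76 had at least 1 intronless copy in mm9 (at least 95% identity over at least 90% of the coding sequence), with a median of 5, a total of 584 and up to 55 for Rpl21. The pseudogene Rpl34-ps1 is itself a member by name and pathway, so the pair could be read side by side. Its copy of the coding sequence (chr6:71074604-71074957, plus strand) differs from Rpl34 at 2 of 354 bases, T132C and C318G, counted from the A of the start codon with the base of Rpl34 first. The stretch from base 102 to base 354 is shown for both, with these bases in capitals.
Rpl34: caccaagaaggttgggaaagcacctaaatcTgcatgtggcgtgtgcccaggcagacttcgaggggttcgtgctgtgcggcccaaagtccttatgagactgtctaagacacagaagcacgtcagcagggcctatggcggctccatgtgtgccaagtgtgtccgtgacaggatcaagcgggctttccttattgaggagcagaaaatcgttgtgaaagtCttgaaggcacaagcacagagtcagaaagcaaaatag
Rpl34-ps1: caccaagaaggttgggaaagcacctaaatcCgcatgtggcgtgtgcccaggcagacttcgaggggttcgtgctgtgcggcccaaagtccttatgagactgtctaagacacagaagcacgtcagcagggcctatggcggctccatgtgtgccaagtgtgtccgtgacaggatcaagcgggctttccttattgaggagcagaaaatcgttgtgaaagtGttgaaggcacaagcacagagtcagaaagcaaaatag
In 9 libraries the copy measured 4.25 to 13.97 FPKM, 3.34 to 6.53% of the pair. In the other 3 it exceeded Rpl34 (54.6 to 62.0% of the pair): AT2-PBS replicate 2 (64.9 FPKM for Rpl34 and 84.1 for the copy), Atg5-/- AT2-PBS replicate 2 (126 and 152) and Atg5-/- AT2-BLM replicate 1 (53.6 and 87.5). The sum of the pair ran from 127 to 278 FPKM, and in Atg5-/- AT2-PBS it was 176, 278 and 161. Over the 12 libraries the mean of the tested members had a Pearson's r of 0.82 with Rpl34 alone and 0.77 with the sum of the pair, on the log2(FPKM + 1) scale. Exchange of reads between the pair was not tested. These 3 libraries came from 3 groups, and no comparison called either gene.

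Rps3a1 and Rplp0 also stood apart from the other members in single libraries. Rps3a1 measured 195, 214 and 65.4 FPKM in Atg5-/- AT2-PBS and, as given above, 65.7 FPKM in the Atg5-/- AT2-BLM library where 50 other members had their highest value. It was at 217 to 343 FPKM in the 6 Atg5f/f libraries, so its group ranges did not overlap between AT2-PBS and Atg5-/- AT2-PBS (log2 change -0.99, limma adjusted p = 0.238). Rplp0 had its lowest value, 154 FPKM, in AT2-PBS replicate 3, where 4 members had their highest. The genome holds 7 intronless copies of the Rps3a1 coding sequence, the nearest at 99.5% identity, and 3 of Rplp0, the nearest at 98.7%. Values for these copies were not analysed here, and the part of read sharing was not tested.

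**Figure D5:**
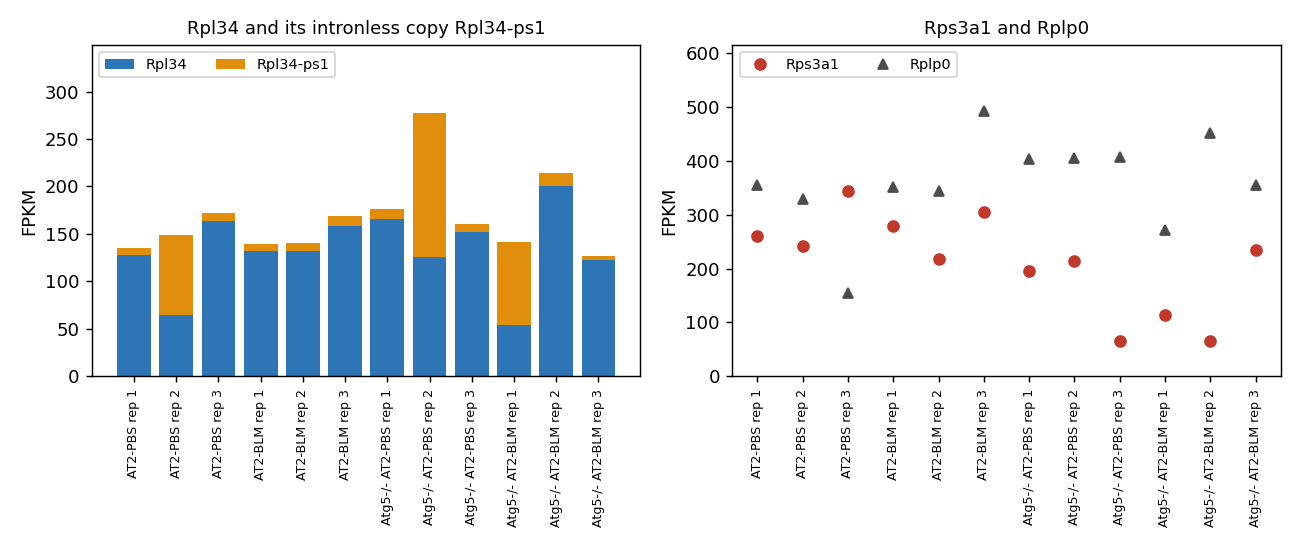
Left, FPKM of Rpl34 (blue) and Rpl34-ps1 (orange) stacked for each of the 12 libraries; right, FPKM of Rps3a1 (red circles) and Rplp0 (grey triangles) in the same libraries. Rpl34-ps1 exceeds Rpl34 in 3 libraries, and Rps3a1 falls to 65.4 and 65.7 in 1 library of each Atg5-/- group.

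The other pairs and single members of interest gave no call. Rpl36al, which shares 87.8% of coding bases with Rpl36a, measured 294 to 555 FPKM and Rpl36a 67.1 to 167 FPKM, with no call in any comparison. The retrogene Rpl37rt measured 7.02 to 17.3 FPKM. Of the members of extraribosomal interest, Rpl5 and Rpl11, which bind Mdm2, stood at 38.0 ± 1.14 and 95.7 ± 13.6 FPKM in AT2-PBS and 47.6 ± 2.74 and 127 ± 11.7 FPKM in Atg5-/- AT2-PBS (SD, n = 3 each), and neither was called. Rps6, the substrate of S6 kinase, stood between 107 and 175 FPKM and Rps27a, a ubiquitin fusion, between 94.9 and 221 FPKM, also without a call.

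Genes that make ribosomes were followed around the members. Of 40 tested ribosome biogenesis genes, 21 rose (against 20.6% of all genes) and 1, Heatr1, fell (against 7.77%) in AT2-BLM against AT2-PBS, with a median log2 change of 0.51 (0.17 over all genes). Nhp2, of the box H/ACA particles, measured 17.6, 13.6 and 17.8 FPKM in AT2-PBS and 41.1, 39.1 and 63.4 FPKM in AT2-BLM (log2 change 1.47, limma adjusted p = 0.00361). Rrs1, for large-subunit assembly, had a log2 change of 1.24 and Gnl3, a nucleolar GTPase, one of 1.11 (limma adjusted p = 0.00366 and 0.00961). None of these 3 genes' groups overlapped. Of the 21 biogenesis genes that rose, 13 passed the adjusted threshold (13.1% of all genes upward), and Heatr1 did not.

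Of 77 ribosomal proteins of the mitochondrion, a separate ribosome, 33 rose and 0 fell in AT2-BLM against AT2-PBS (20.6% and 7.77% of all genes), with a median log2 change of 0.42 (0.17 over all genes and 0.20 for the cytosolic members). Mrpl47 measured 7.88, 5.97 and 9.91 FPKM in AT2-PBS and 20.6, 19.2 and 21.0 FPKM in AT2-BLM (log2 change 1.28), followed by Mrpl46 (1.10) and Mrps18c (1.06). Of 28 initiation factor genes 12 rose and 0 fell (the same shares of all genes apply), with a median log2 change of 0.35, led by Eif2s2 (log2 change 0.90), Eif4a1 (0.87) and Eif2b4 (0.85). Of these calls, 24 of mitochondrial ribosomal proteins and 11 of initiation factors passed the adjusted threshold (13.1% of all genes upward). The difference between these lists and the cytosolic members was not tested.

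The remaining lists moved in few genes. Of 6 tested genes in the list of Eef names, only Eef1e1 rose with BLM in Atg5f/f cells (log2 change 0.84). It passed the adjusted threshold, while Eef1a1, Eef1b2, Eef1d, Eef1g and Eef2 were not called. Of 13 other TOP mRNAs, Eif2s3x rose (0.53) without passing that threshold. Its groups overlapped (3.80 to 5.96 FPKM in AT2-PBS and 5.85 to 8.75 FPKM in AT2-BLM). Of 13 genes of mTOR control of TOP mRNAs, 2 rose and 2 fell. Sesn2, a stress-induced mTORC1 inhibitor, rose from 16.4 to 17.0 FPKM in AT2-PBS to 34.2 to 42.1 in AT2-BLM (log2 change 1.12). Eif4ebp1, a repressor of translation, rose too (0.97), while Deptor and Larp1, the latter a TOP-binding protein, fell (-1.07 and -0.90). Both genes that rose and 1 of the 2 that fell passed the adjusted threshold. Of 11 ribosome quality control and ribophagy genes, Abce1 rose (0.67) without passing it. In Atg5-/- AT2-PBS against AT2-PBS, where 14.1% of all genes were called higher and 5.16% lower, 5 of 40 biogenesis genes rose and 1 fell, 2 of 77 mitochondrial ribosomal protein genes rose, and Eif4ebp1 (0.97), Tsc1 (0.50), Pabpc1 (0.78), Eif3f (0.66), Eef1b2 (0.49) and Fau (0.57) rose in the other lists. Of the genes that rose there, 4 biogenesis, 1 mitochondrial, 1 mTOR control and 1 TOP gene passed the adjusted threshold (9.90% of all genes upward). Eef1b2 and Fau did not. In the difference of the BLM effects, 11 of 40 biogenesis and 8 of 77 mitochondrial ribosomal protein genes were lower and 0 higher (15.2% and 5.02% of all genes). Of these, 2 biogenesis and 0 mitochondrial genes passed the adjusted threshold.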

How the data were processed

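The 12 libraries were TruSeq mRNA libraries of sorted AT2 cells. The authors deposited FPKM per gene with gene names and KEGG pathways. The study's methods give STAR, mm9 and Cufflinks and a DESeq normalization, and the submitters' processing notes list Trimmomatic 0.36, HISAT2 2.2.1.0, Cufflinks 2.2.1 and HTSeq 0.9.1. Which aligner made these values, and whether the FPKM include the DESeq step, is not given in the sources used here. Samples were grouped by their titles, and the 4 groups were compared in 5 contrasts. Genes reaching 1 FPKM in 3 or more samples entered a test on log2(FPKM + 1) with limma 3.58.1 in R 4.3.3 (mean-variance trend, 12 samples in 1 fit). A count test was not run since FPKM are not counts. The script was tested on simulated data. Members and lists were chosen with earlier results of these data known. Named were the 5 members of highest mean, up to 5 called members per direction and comparison whose groups did not overlap, members under 1 FPKM, paralogs, 8 listed members, the 2 of smallest spread and up to 3 called genes per list. Genes named outside it (Rpl10, Rps15a, Rps24, Rpl34, Rpl34-ps1, Rps3a1 and the other members called or far from the group) were chosen after their values were seen. Coding sequences were searched in mm9 with megablast (BLAST+ 2.17.0, word size 20). Alternatives covered 3 other scalings, a pseudocount of 0.1, no filter, a replicate block, only the compared groups, no trend, adjusted p, a fold of 2 and each library left out.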

Additional observations from a re-analysis of the deposited data

Results flagged for a closer look

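The test of the difference between genotypes in the BLM effect, the interaction term of the limma fit, picked out 2 members. For Rps27l the effect was lower by 0.84 on the log2(FPKM + 1) scale in Atg5-/- cells (difference -0.84, adjusted p = 0.0885): the log2 change with BLM was 1.16 in Atg5f/f cells and 0.32 in Atg5-/- cells. Both ends entered this difference: Rps27l was higher in Atg5-/- than in Atg5f/f cells with PBS (log2 change 0.45) and lower with BLM (-0.39), neither called. Rps27l missed the criterion with quantile normalization (-0.60) and scaled to a common sum (-0.49), and met it in the other 17 settings. For Rps20 the difference was -0.68 (adjusted p = 0.226), from log2 changes of 0.35 and -0.33, neither called alone. Rps20 missed the criterion in 13 of 19 settings. Of all genes tested, 15.2% were called lower in this comparison.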

How the results depend on the processing

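Of 279 recomputed counts and medians of the members, 198 were labelled the same. A count was the same within 1.5 times, and a median if it kept its sign and moved by less than 0.29. That limit is the pooled SD between libraries of the members' median level. It is larger in size than the main medians of 0.20, -0.08 and -0.22, so the label says little about those medians. Of 1875 values of single genes 99 lost and 52 gained a call and 0 changed sign once called. In AT2-BLM against AT2-PBS (5 higher, 1 lower, median 0.20), quantile normalization and scaling to a common sum gave 1 higher and 4 lower with medians of -0.0129 and -0.0250, median-ratio scaling 2 and 2, no filter 0 lower, only the compared groups 10 higher, adjusted p and a fold of 2 each 1 higher and 0 lower, and values relative to the members' mean 2 and 2. Single libraries left out gave 2 to 8 higher and 0 to 1 lower. In Atg5-/- AT2-BLM against AT2-BLM (0 higher, 1 lower, median -0.08), quantile normalization (median 0.0221), a common sum (0.0907), no filter, adjusted p and leaving out Atg5-/- AT2-BLM replicates 1 and 2 together gave 0 lower. Single libraries left out gave 0 to 8 lower and medians of -0.33 to 0.14.

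In Atg5-/- AT2-PBS against AT2-PBS (8 higher, 0 lower), quantile normalization gave 5 and 1, median-ratio scaling and only the compared groups 1 lower, a common sum 0 and 2, adjusted p and a fold of 2 each 0 higher, and values relative to the members' mean 1 and 3. Single libraries left out gave 1 to 22 higher and 0 to 1 lower. In Atg5-/- AT2-BLM against Atg5-/- AT2-PBS (0 higher, 5 lower), a common sum gave 1 and 2, adjusted p 1 lower, a fold of 2 0 lower, values relative to the members' mean 1 and 0, and leaving out both replicates 1 and 2 of Atg5-/- AT2-BLM 12 lower. Single libraries left out gave 2 to 39 lower. For the difference of the BLM effects (2 lower, median -0.41), quantile normalization, a common sum (median -0.0162), adjusted p and a fold of 2 gave 0 lower, median-ratio scaling 1, values relative to the members' mean 1 higher and 0 lower, and leaving out both replicates 16 lower. Single libraries left out gave 1 to 52 lower. The cause was not tested, beyond the smaller number of samples or the stricter threshold where that is the alternative.

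Replicate numbers did not pair the samples (correlations of same-numbered deviations between groups from -0.30 to 0.23), and not every sample correlated best with its own number. A replicate block gave 6 and 1, 0 and 1, 6 and 0, 0 and 5, and 0 and 2 members higher and lower in the 5 comparisons in the order above. The settings relative to the members' mean and without 2 replicates were chosen after seeing the data, and the latter left 1 library in its group, with the spread taken from the other groups. FPKM carry no read counts, so no counting error could be given, and 3 libraries a group set the precision.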
